A study of Homo sapiens with 12 samples.

Results

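ST6GALNAC5 and 9 other sialyltransferase genes are described here in arrays labelled as MDA-MB-231 breast cancer cells with an LSD2 shRNA, with an LSD2 vector or with the control of either. The genes are ST6GALNAC5, ST6GALNAC2, ST6GALNAC4, ST3GAL1, ST3GAL2, ST3GAL4, ST3GAL5, ST3GAL6, ST6GAL1 and ST8SIA1. They were taken by name, with every probe set that the platform annotation assigns to a single gene, which gave 10 genes of 11964 and 18 probe sets of 19064. The list was chosen on the differences in both comparisons, with ST6GALNAC5 at its head because of its value with the LSD2 shRNA, so the values of the 10 genes in both comparisons are a description and carry no test.

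Sialyltransferases are Golgi enzymes that take sialic acid from its activated donor, CMP-sialic acid, and add it to the ends of sugar chains on glycoproteins and glycolipids. The family is named by linkage and acceptor, so that ST3GAL and ST6GAL enzymes act on galactose, ST6GALNAC enzymes on N-acetylgalactosamine and ST8SIA enzymes on another sialic acid. Sialylated ends are ligands for selectins and Siglec receptors and can mask sugars that other lectins bind. ST6GALNAC5, which makes alpha-series gangliosides and is mainly a brain enzyme, is known as a mediator of brain metastasis in derivatives of breast cancer lines, this line among them.

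Total RNA was measured on 12 Affymetrix arrays with 3 biological replicates in each of 4 groups. The groups were MDA-MB-231 cells carrying an LSD2 shRNA (knockdown), cells carrying a Scramble shRNA, cells carrying an LSD2/eGFP/Flag vector (overexpression) and cells carrying an eGFP/Flag vector. All 4 groups were kept with G-418 at 800 µg/ml, which removes untransfected cells. MDA-MB-231 is an established line without hormone receptors, and LSD2, encoded by KDM1B, is a demethylase of histone H3. Whether the selected cells of each group were a clone or pooled cells is not stated in the labels, so the effect of LSD2 and that of a single selected line cannot be told apart, and the spread between replicates may be technical. No probe set used here named KDM1B, and neither the knockdown nor the overexpression was checked on its target.

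The deposited values are log2 signals, whose median over all probe sets was 7.03 to 7.18 in the vector arrays and 6.65 to 6.71 in the shRNA arrays, so the 2 sets seem to lie on separate scales. Levels were therefore compared only between LSD2 shRNA and scramble shRNA and between LSD2/eGFP/Flag and eGFP/Flag. A gene is described as called, or as having risen or fallen, where its adjusted p was under 0.05 in a limma fit over all 11964 genes (Benjamini-Hochberg). The arrays labelled LSD2/eGFP/Flag went against the cell line's markers. The 8 defining markers of the line (VIM, CD44, CAV1, EGFR, AXL, PLAU, MSN and ANXA1) averaged 7.04 to 7.26 log2 units per array there, against 12.65 to 12.68 in eGFP/Flag arrays, and all 8 were called lower. CD44 was at 3.99 ± 0.07 there, against 12.4 ± 0.20 in eGFP/Flag arrays (SD, n = 3 each). The same markers averaged 11.78 to 11.79 in LSD2 shRNA arrays and 11.71 to 11.79 in scramble arrays, with 0 of 8 called. The neuronal markers NEFM (6.74 ± 0.14) and NEFL (3.25 ± 0.11) were called higher in the LSD2/eGFP/Flag arrays and TUBB3 was called lower, of 5 listed. Of 6 luminal markers GATA3 rose there by 2.00 ± 0.11 and ESRP1 fell by 0.27 ± 0.08. Of 5 fibroblast and endothelial markers LUM rose by 1.94 ± 0.35 and CDH5 by 0.26 ± 0.07, and 0 of 4 blood markers were called. With the LSD2 shRNA 0 of 5 neuronal and 0 of 6 luminal markers were called, but CD14, of 4 measured blood markers, fell by 0.29 ± 0.08 and PECAM1, of 5 fibroblast and endothelial markers, rose by 0.92 ± 0.19. Their part in the results below was not tested. Whether the arrays labelled LSD2/eGFP/Flag hold RNA of this line was not tested, and they may not. Every value of the vector comparison rests on these arrays, and no version of it without them exists, so they are named by their label throughout.

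ST6GALNAC5 gave the third largest rise of the 11964 genes with the LSD2 shRNA. The values in the 3 LSD2 shRNA arrays were 7.57, 7.37 and 7.62, against 4.31, 3.95 and 4.49 in the scramble arrays. All LSD2 shRNA arrays lay far above all scramble arrays, and the spread within a group was small beside the gap. The group means were 7.52 ± 0.14 with LSD2 shRNA and 4.25 ± 0.27 with scramble (SD, n = 3 each), a difference of 3.27 ± 0.12 log2 units (standard error of the fit), or 9.62-fold. In bulk RNA, more RNA per cell and more cells with the RNA cannot be told apart. Only 3 genes, ST6GALNAC5 included, had a difference of that size in either direction, which is 0.0251% of the genes tested.

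In the vector arrays ST6GALNAC5 stayed low. Its values were 4.00, 4.04 and 4.10 in LSD2/eGFP/Flag arrays, against 4.49, 4.37 and 4.19 in eGFP/Flag arrays. The groups did not overlap, with all LSD2/eGFP/Flag arrays below all eGFP/Flag arrays, but the difference of -0.30 ± 0.12 was not called in the fit over all genes, whereas it was in 10 of 20 alternatives, among them the replicate block, a fit of only the vector groups and a shift to equal medians (-0.44). Within its own array the probe set ranked at percentile 61.3 ± 1.73 of all probe sets with LSD2 shRNA and 14.75 ± 2.55 with scramble, and at 6.93 ± 0.60 with LSD2/eGFP/Flag and 10.9 ± 2.38 with eGFP/Flag (SD, n = 3 each). Outside the LSD2 shRNA arrays it thus lay in the dim range of the array, where these values have no detection call and small differences have no order.

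**Figure D1:**
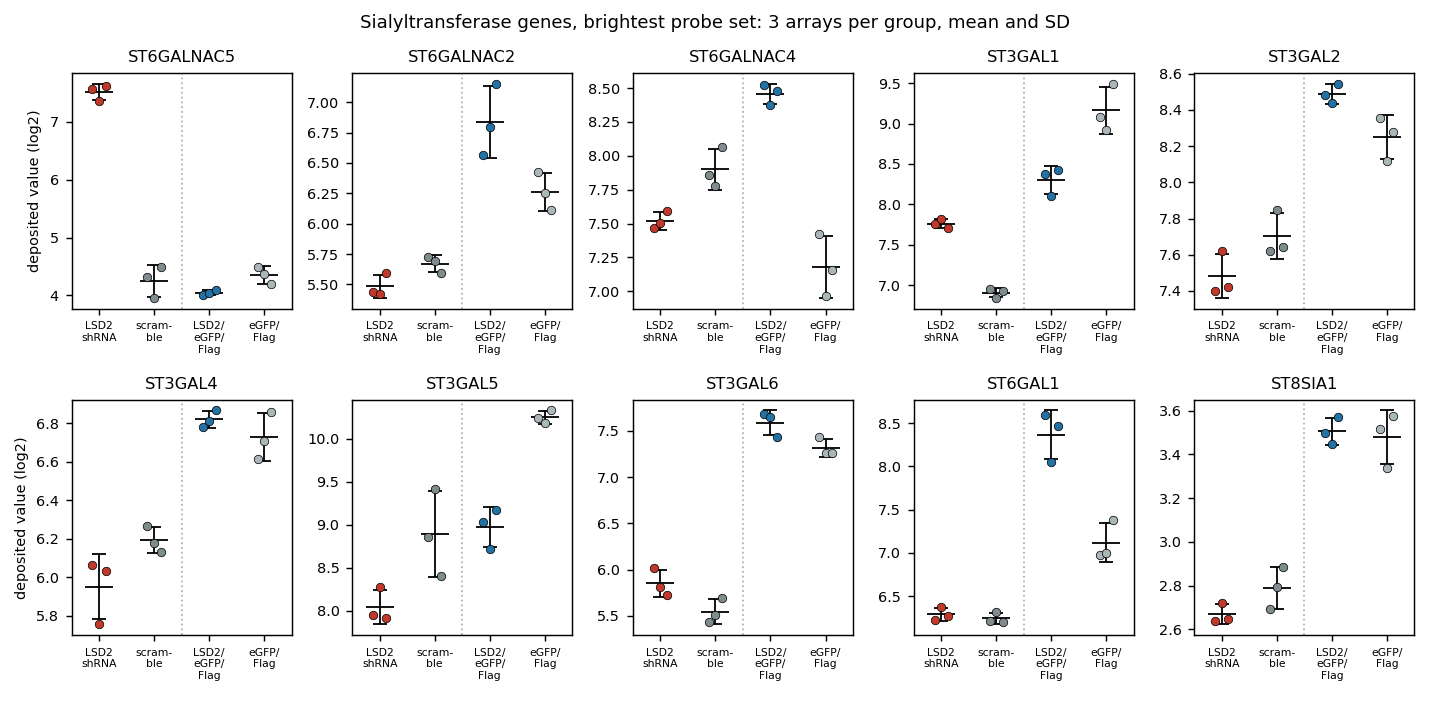
Deposited log2 values of the brightest probe set of each of the 10 genes, with a point for each array and a bar and whiskers for the mean and SD of 3 arrays; the dotted line separates shRNA arrays from vector arrays, whose levels are not comparable. ST6GALNAC5 is above 7.3 in the 3 LSD2 shRNA arrays and below 4.5 in the other 9 arrays.

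The other ST6GALNAC genes did not follow ST6GALNAC5. ST6GALNAC4, which adds a further sialic acid to sialylated mucin-type O-glycans, was at 7.46, 7.50 and 7.59 with LSD2 shRNA, against 7.86, 7.78 and 8.07 with scramble. It was lower in all 3 LSD2 shRNA arrays, and it fell by 0.38 ± 0.11. In the vector arrays it was at 8.52, 8.38 and 8.48 with LSD2/eGFP/Flag, against 7.42, 6.96 and 7.16 with eGFP/Flag. The groups did not overlap there either, and it rose by 1.28 ± 0.11, so its directions in the comparisons were opposite. The call of the fall was lost in 10 of 21 alternatives, among them scaling by cyclic loess or equal medians and leaving out any LSD2 shRNA array, scramble replicate 1 or 3, or LSD2/eGFP/Flag replicate 1 or 3. ST6GALNAC2, which sialylates the N-acetylgalactosamine of O-glycans, averaged 5.48 ± 0.10 with LSD2 shRNA and 5.67 ± 0.07 with scramble, and was not called (-0.19 ± 0.13). Replicate 3 of both these groups held the identical value 5.592238. It averaged 6.84 ± 0.29 with LSD2/eGFP/Flag and 6.26 ± 0.16 with eGFP/Flag (SD, n = 3 each), and rose by 0.57 ± 0.13.

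The promoter windows of the 2 ST6GALNAC genes called with the LSD2 shRNA are shown because these close relatives moved in opposite directions there. Each runs from 250 bases before to 50 bases after the gene's start in RefSeq (GRCh38.p14) and is written 5′ to 3′ on the gene's strand, with capitals for matches on either strand to the GC box GGGCGG, to the CCAAT box or to TATAAA, none of which overlap. The ST6GALNAC5 window is chr1:76867230-76867529 on the plus strand, and the ST6GALNAC4 window is chr9:127916992-127917291 on the minus strand, where a read-through gene with AK1 shares the start.
ST6GALNAC5: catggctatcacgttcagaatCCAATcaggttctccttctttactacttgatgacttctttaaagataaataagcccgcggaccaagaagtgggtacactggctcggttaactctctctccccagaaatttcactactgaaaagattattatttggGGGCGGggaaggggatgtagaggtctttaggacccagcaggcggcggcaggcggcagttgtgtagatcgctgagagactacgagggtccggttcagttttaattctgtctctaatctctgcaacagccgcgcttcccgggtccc
ST6GALNAC4: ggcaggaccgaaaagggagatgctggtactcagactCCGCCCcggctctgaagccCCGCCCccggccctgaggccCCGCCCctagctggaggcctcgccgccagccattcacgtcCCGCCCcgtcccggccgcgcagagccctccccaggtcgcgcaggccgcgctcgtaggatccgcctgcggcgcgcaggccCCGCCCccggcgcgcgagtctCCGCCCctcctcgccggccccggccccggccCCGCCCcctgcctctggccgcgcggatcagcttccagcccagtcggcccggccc
The ST6GALNAC5 window had 50% GC, 14 CpG dinucleotides, 1 match to GGGCGG, 1 to CCAAT and 0 to TATAAA. That of ST6GALNAC4 had 79% GC, 39 CpG dinucleotides, 7 matches to GGGCGG and 0 to the other motifs. Over all 35116 windows the median was 58.7% GC and 14 CpG, and GGGCGG was found in 45%, CCAAT in 34.6% and TATAAA in 11.5%. So ST6GALNAC5 had the median CpG number of all promoters, while 91.3% of windows had fewer than that of ST6GALNAC4. In all, 7 of the 10 genes had a window in the table, and the CpG number of their 16 windows ranged from 1 (ST3GAL6) to 48 (ST3GAL5). These letters describe the genome and not the arrays, which measured neither methylation nor binding.

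Among the ST3GAL genes, ST3GAL1 and ST3GAL5 were called in both comparisons. ST3GAL1 caps the T antigen of mucin-type O-glycans with sialic acid. It was at 7.76, 7.82 and 7.71 with LSD2 shRNA, against 6.96, 6.84 and 6.93 with scramble. The groups were well separated, and it rose by 0.86 ± 0.13. In the vector arrays it was at 8.38, 8.11 and 8.42 with LSD2/eGFP/Flag, against 9.08, 8.92 and 9.49 with eGFP/Flag, and it fell by 0.86 ± 0.13. The groups did not overlap, the signs were opposite in the comparisons, and both calls held in all 21 alternatives.

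ST3GAL5 is the GM3 synthase, which puts the first sialic acid on lactosylceramide and so starts most gangliosides. It was at 7.94, 8.27 and 7.91 with LSD2 shRNA, against 8.86, 9.41 and 8.41 with scramble. Every LSD2 shRNA array lay below every scramble array, but the scramble arrays spread over a full log2 unit. The means were 8.04 ± 0.20 with LSD2 shRNA and 8.89 ± 0.50 with scramble (SD, n = 3 each), and ST3GAL5 fell by 0.85 ± 0.20. In the vector arrays it was at 9.03, 8.72 and 9.17 with LSD2/eGFP/Flag, against 10.24, 10.18 and 10.33 with eGFP/Flag, and fell by 1.27 ± 0.20. It was the only listed gene lower in both comparisons among those called. The call with the LSD2 shRNA was lost without LSD2 shRNA replicate 1 or 3 and when only its 2 groups were fitted, and without scramble replicate 2, the highest array, the fall was 0.59.

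The remaining ST3GAL genes, by their brightest probe sets, differed less than ST3GAL1 and ST3GAL5. ST3GAL2 sialylates, on glycolipids, the terminal disaccharide that ST3GAL1 caps on O-glycans. It averaged 7.48 ± 0.12 with LSD2 shRNA and 7.70 ± 0.13 with scramble, and was not called (-0.22 ± 0.09). It averaged 8.49 ± 0.05 with LSD2/eGFP/Flag and 8.25 ± 0.12 with eGFP/Flag, and rose by 0.24 ± 0.09. ST3GAL4, which acts on N-glycans and contributes to sialyl Lewis x, was called in neither comparison (-0.24 ± 0.09 with the shRNA, 0.09 ± 0.09 with the vector, the sign of the vector value turning after cyclic loess or a shift to equal medians). ST3GAL6, which acts on similar chains, averaged 5.85 ± 0.15 with LSD2 shRNA and 5.54 ± 0.14 with scramble, and was not called (0.31 ± 0.10). It averaged 7.59 ± 0.14 with LSD2/eGFP/Flag and 7.32 ± 0.10 with eGFP/Flag, and rose by 0.27 ± 0.10. The vector calls of ST3GAL2 and ST3GAL6 were lost after cyclic loess or a shift to equal medians. They were also lost without LSD2/eGFP/Flag replicate 1 or eGFP/Flag replicate 2 or 3, and without LSD2/eGFP/Flag replicate 3 (ST3GAL2) or replicate 2 (ST3GAL6). Array weights also ended the vector call of ST3GAL6, and with the mean of its probe sets the vector difference was -0.17. Some alternatives added calls with the shRNA. ST3GAL2 was then called with the mean of its probe sets (-0.24) and ST3GAL4 with array weights (-0.29). ST3GAL6 was called with array weights (0.39) and without scramble replicate 3 (0.38). For each of these genes the LSD2 shRNA and scramble arrays did not overlap, as for 28.3% of all genes.

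ST6GAL1, the main enzyme that sialylates galactose on N-glycans, was not called with the shRNA and was called with the vector. It was at 6.23, 6.37 and 6.27 with LSD2 shRNA, against 6.21, 6.32 and 6.20 with scramble. The groups overlapped, and the difference was 0.05 ± 0.13. In the vector arrays it was at 8.59, 8.05 and 8.46 with LSD2/eGFP/Flag, against 6.98, 7.0 and 7.38 with eGFP/Flag, and rose by 1.25 ± 0.13. With the mean of its 3 probe sets the rise was 0.44. ST8SIA1, the GD3 synthase, which adds a sialic acid to GM3, lay at percentile 2.9 or lower of every array. Its means were 2.67 ± 0.05 with LSD2 shRNA and 2.79 ± 0.10 with scramble, and 3.51 ± 0.06 with LSD2/eGFP/Flag and 3.48 ± 0.12 with eGFP/Flag (SD, n = 3 each). It was called in neither comparison, and values this low allow no order.

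**Figure D2:**
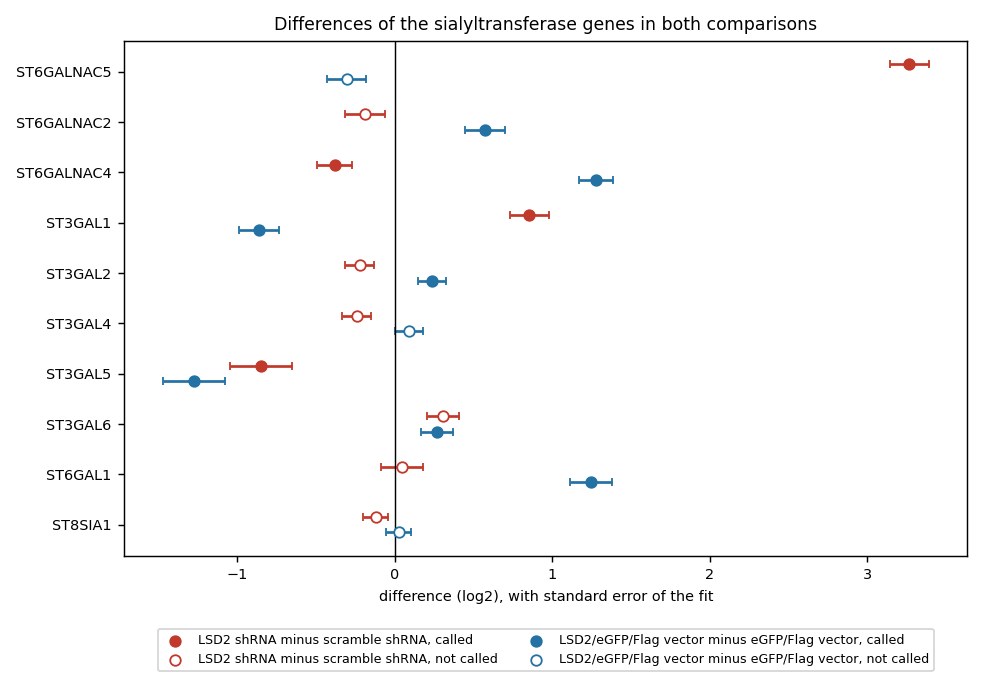
Differences (log2) of the 10 genes with LSD2 shRNA (red) and with the LSD2/eGFP/Flag vector (blue), each with the standard error of the fit; filled points were called at an adjusted p under 0.05 over all genes. ST6GALNAC5 stands at 3.27 with the shRNA, ST3GAL1 and ST6GALNAC4 lie on opposite sides of 0, and ST3GAL5 is below 0 in both.

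With the LSD2 shRNA, 4 of the 10 genes were called, 2 higher (ST6GALNAC5 and ST3GAL1) and 2 lower (ST6GALNAC4 and ST3GAL5), against 10.5% of all genes called, 5.0% higher and 5.53% lower (limma, Benjamini-Hochberg). The groups did not overlap for 7 of the 10, against 28.3% of all genes. Their median difference was -0.15, against -0.01 over all genes. With the LSD2/eGFP/Flag vector, 7 were called, 5 higher and 2 lower, against 57.0% of all genes, 30.9% higher and 26.1% lower, and groups did not overlap for 7 of the 10, against 61.1%. Their median difference was 0.16, against 0.01 over all genes. A shift of the arrays to equal medians lowered the vector differences of all genes by 0.137 and turned the balance of all calls to 2917 higher and 4300 lower, against 3701 and 3123 as deposited. The shRNA calls were 699 higher and 525 lower after that shift and 650 and 641 after cyclic loess, against 598 and 662 as deposited. Because the list was chosen with these contrasts known, nothing is read from its shares.

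The difference between the effects, vector minus shRNA, comes from the contrasts on which the list was chosen and is likewise a description without a test. In the fit over all genes 50.4% were past the threshold, 28.0% higher and 22.4% lower, and so were 7 of the 10 genes, 5 higher and 2 lower, from which nothing is read. It was -3.57 ± 0.18 for ST6GALNAC5, -1.72 ± 0.18 for ST3GAL1, 1.66 ± 0.15 for ST6GALNAC4 and 1.20 ± 0.19 for ST6GAL1, the last being 0.46 with the mean of all probe sets. ST6GALNAC2 (0.76 ± 0.18), ST3GAL2 (0.46 ± 0.13) and ST3GAL4 (0.33 ± 0.13) had smaller ones. The remaining 3 were ST3GAL5 (-0.42 ± 0.28), ST3GAL6 (-0.04 ± 0.14) and ST8SIA1 (0.15 ± 0.11), with ST3GAL6 at -0.41 and past the threshold when its probe sets were averaged. Over all genes, 2.71% were called higher with the shRNA and lower with the vector, as ST3GAL1 was, 2.26% the reverse, as ST6GALNAC4 was, and 1.96% lower in both, as ST3GAL5 was.

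Several probe sets were present for 5 of the genes, and they did not always give the same difference. Both probe sets of ST6GALNAC4 fell with the shRNA (by 0.38 and by 0.43) and rose with the vector (1.28 and 1.42), so either probe set gave opposite directions. The ST3GAL2 probe sets gave -0.22 and -0.25 with the shRNA and 0.24 and 0.21 with the vector, the dimmer 205346_at not being called. For ST6GAL1, 201998_at gave 1.25 with the vector, whereas 214970_s_at gave -0.06 and 214971_s_at gave 0.12, both at percentile 22.04 or lower of every array. ST3GAL4 likewise had a dim probe set, 215710_at, at 0.02 and 0.04.

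ST3GAL6 had 4 probe sets, and with the vector they went in opposite directions. The brightest, 213355_at, rose by 0.27 ± 0.10, 210942_s_at rose by 0.39 ± 0.12 and 213335_s_at rose by 0.30 ± 0.11. In contrast, 213873_at was at 5.31, 5.24 and 5.47 with LSD2/eGFP/Flag, against 7.21, 6.61 and 7.10 with eGFP/Flag, and fell by 1.63 ± 0.16. The groups of 213873_at were far apart in the direction opposite to the rest. The next measured gene after ST3GAL6 on chromosome 3, DCBLD2, fell by 2.37 ± 0.16 with the vector, and its part in the value of 213873_at was not tested. Over the 18 probe sets, 5 were called with the shRNA (8.73% of all 19064) and 11 with the vector (54.6%).

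**Figure D3:**
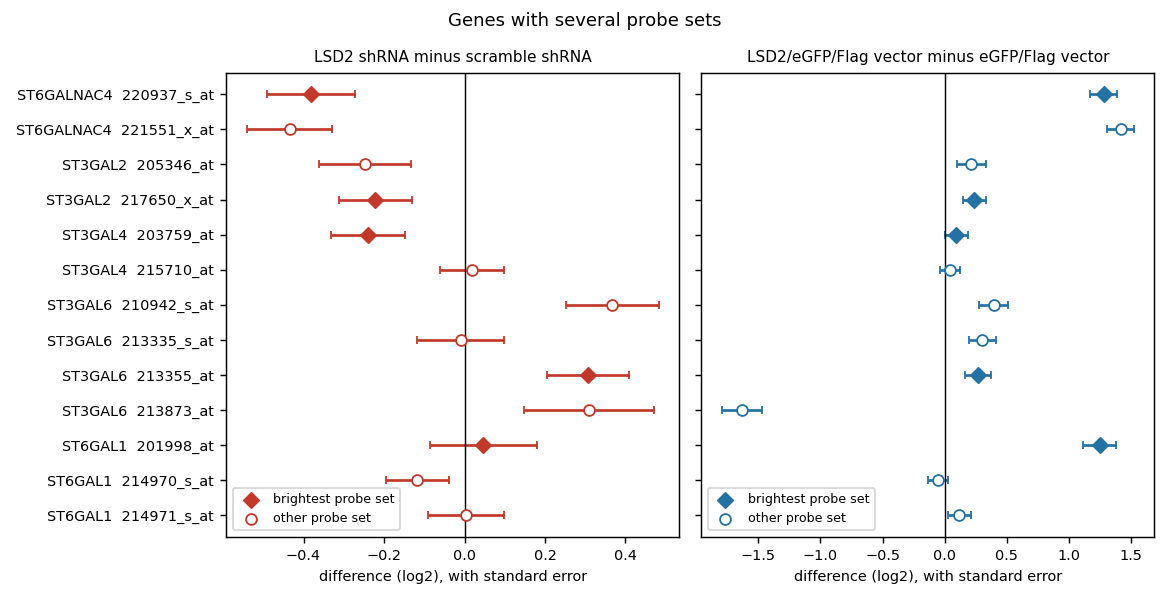
Differences (log2, with standard error) of every probe set of the 5 genes with several, with LSD2 shRNA on the left and the LSD2/eGFP/Flag vector on the right; diamonds mark the brightest probe set of a gene and open circles the others. In the vector comparison 213873_at of ST3GAL6 is at -1.63, opposite to the other 3 probe sets of that gene.

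Of 10 further sialyltransferases listed, 4 were measured, namely ST8SIA2, ST8SIA3, ST8SIA4 and ST8SIA5, which extend chains of sialic acid. With the LSD2 shRNA 0 of 4 were called, with differences from -0.08 to 0.22 and a lowest adjusted p of 0.462 (limma, Benjamini-Hochberg). With the vector ST8SIA4, a polysialic acid synthase, fell by 0.68 ± 0.15, averaging 4.61 ± 0.16 with LSD2/eGFP/Flag and 5.29 ± 0.28 with eGFP/Flag (limma adjusted p = 0.0017, SD, n = 3 each), and the other 3 were not called.

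Genes that supply and remove sialic acid changed in a few places with the LSD2 shRNA. In these and the following lists the counts stand against 10.5% of all genes called with the shRNA, and nothing is read from shares near it. Of 7 measured genes of sialic acid synthesis and transport, 1 rose and 0 fell, the lysosomal sialic acid exporter SLC17A5 (0.55 ± 0.14, limma adjusted p = 0.0271). GNE, the entry enzyme of sialic acid synthesis, was at 0.05 ± 0.15, and CMAS, which activates sialic acid, at 0.14 ± 0.11, neither called. Of 5 sialidase and sialic acid O-acetylation genes 2 fell, the lysosomal sialidase NEU1 (by 0.47 ± 0.11, limma adjusted p = 0.014) and CTSA, the protective protein that stabilises it (by 0.32 ± 0.09, limma adjusted p = 0.0425). The calls of SLC17A5 (without LSD2 shRNA replicate 1 or 2 or scramble replicate 1 or 3), NEU1 (LSD2 shRNA 1 or 3, scramble 2) and CTSA (any array of either group, LSD2/eGFP/Flag 3 or eGFP/Flag 1) did not survive the removal of those arrays. Those of SLC17A5 and NEU1 were also lost when only the 2 shRNA groups were fitted, and that of CTSA after a shift to equal medians.

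Around the ganglioside and O-glycan enzymes, the calls with the LSD2 shRNA were also few. Of 9 ganglioside and glycosphingolipid synthesis genes 2 rose and 0 fell (list median -0.01). B4GALT6, a lactosylceramide synthase that makes the acceptor of ST3GAL5, was at 8.38 ± 0.11 with LSD2 shRNA and 7.64 ± 0.12 with scramble, and rose by 0.75 ± 0.11 (limma adjusted p = 0.00066, SD, n = 3 each). B3GALNT1, the globoside synthase, rose by 0.43 ± 0.13 (limma adjusted p = 0.0462). Of 14 genes of mucin-type O-glycan synthesis 1 rose, GALNT3, which adds the N-acetylgalactosamine that starts the chain (0.90 ± 0.15, limma adjusted p = 0.00176), and 0 fell. C1GALT1, which makes the T antigen that ST3GAL1 caps, was at 0.15 ± 0.10 and not called.

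Of 13 genes of N-glycan branching and galactosylation 2 rose and 1 fell with the LSD2 shRNA. The core fucosyltransferase FUT8 rose by 0.51 ± 0.10 (limma adjusted p = 0.00593), MGAT2 rose by 0.36 ± 0.09 (limma adjusted p = 0.0242) and MGAT1, which starts complex chains, fell by 0.38 ± 0.07 (limma adjusted p = 0.00475). Of 6 glycosphingolipid breakdown genes 1 fell, the ganglioside activator GM2A (by 0.54 ± 0.15, limma adjusted p = 0.0339). Among 8 Lewis and blood group fucosyltransferases 0 were called, and of 10 sialic acid binding receptors, found on blood, endothelial and glial cells, only SIGLEC8 was (fell by 0.33 ± 0.08, limma adjusted p = 0.0224). SIGLEC8 was dim, at 4.50 ± 0.09 with LSD2 shRNA and 4.82 ± 0.07 with scramble (SD, n = 3 each). That is near the scramble level of ST6GALNAC5 (4.25 ± 0.27), so little is read from its fall. The calls of B3GALNT1 (any scramble array, LSD2 shRNA 1 or 3, any LSD2/eGFP/Flag array or eGFP/Flag 2), MGAT2 (any array of either group), GM2A (LSD2 shRNA 1 or 3, scramble 1 or 2) and SIGLEC8 (LSD2 shRNA 1 or 2, scramble 2 or 3) likewise depended on those arrays. B3GALNT1, MGAT2 and SIGLEC8 also lost them with the mean of all probe sets, whereas B4GALT6, GALNT3, FUT8 and MGAT1 kept theirs without any array. When only the 2 shRNA groups were fitted, B3GALNT1 and GM2A lost their calls, and a shift to equal medians ended that of SIGLEC8.

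With the LSD2/eGFP/Flag vector, in arrays with the marker levels given above, the same lists held more calls, as did all genes, of which 57.0% were called. Counts near that share say nothing of a list. Of the 9 ganglioside and glycosphingolipid synthesis genes 6 fell and 1 rose (list median -0.65, against 0.01 over all genes). B3GALNT1 fell by 5.20 ± 0.13, to 3.19 ± 0.04 with LSD2/eGFP/Flag, against 8.38 ± 0.24 with eGFP/Flag, UGCG, which makes glucosylceramide, fell by 2.22 ± 0.15 and B4GALT6 fell by 1.93 ± 0.11. For these 3 genes the limma adjusted p was at most 3.0e-08, that of UGCG. Of the 14 O-glycan genes 7 rose and 4 fell, with GALNT12 up by 2.82 ± 0.30 and GALNT10 (fell by 3.22 ± 0.16) and GALNT3 (fell by 2.34 ± 0.15) down. Of the 13 N-glycan genes 6 rose and 5 fell, with MGAT3 up by 1.10 ± 0.14 and MAN2A1 (fell by 2.00 ± 0.08) and FUT8 (fell by 1.62 ± 0.10) down.

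The genes that supply and remove sialic acid also moved both ways with the vector, 3 rising and 2 falling of the 7. NPL, which breaks down free sialic acid, rose by 2.65 ± 0.17 (limma adjusted p = 1.5e-08), whereas CMAS (fell by 0.56 ± 0.11) and the Golgi transporter of CMP-sialic acid SLC35A1 (fell by 0.53 ± 0.08) were lower. NEU1 was at 8.73 ± 0.05 with LSD2/eGFP/Flag and 7.27 ± 0.06 with eGFP/Flag and rose by 1.46 ± 0.11, opposite to its fall with the shRNA. CTSA (fell by 0.73 ± 0.09) and CASD1, which acetylates sialic acid (fell by 0.79 ± 0.14), were lower. Of 6 breakdown genes 3 rose and 2 fell, with GLA (1.81 ± 0.12) and GM2A (1.06 ± 0.15) up and GALC (fell by 2.78 ± 0.12) down. FUT4 (1.35 ± 0.11) and FUT1 (fell by 1.21 ± 0.17) were the calls among the 8 fucosyltransferases, and 0 of 10 sialic acid binding receptors were called (lowest limma adjusted p 0.0669).

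**Figure D4:**
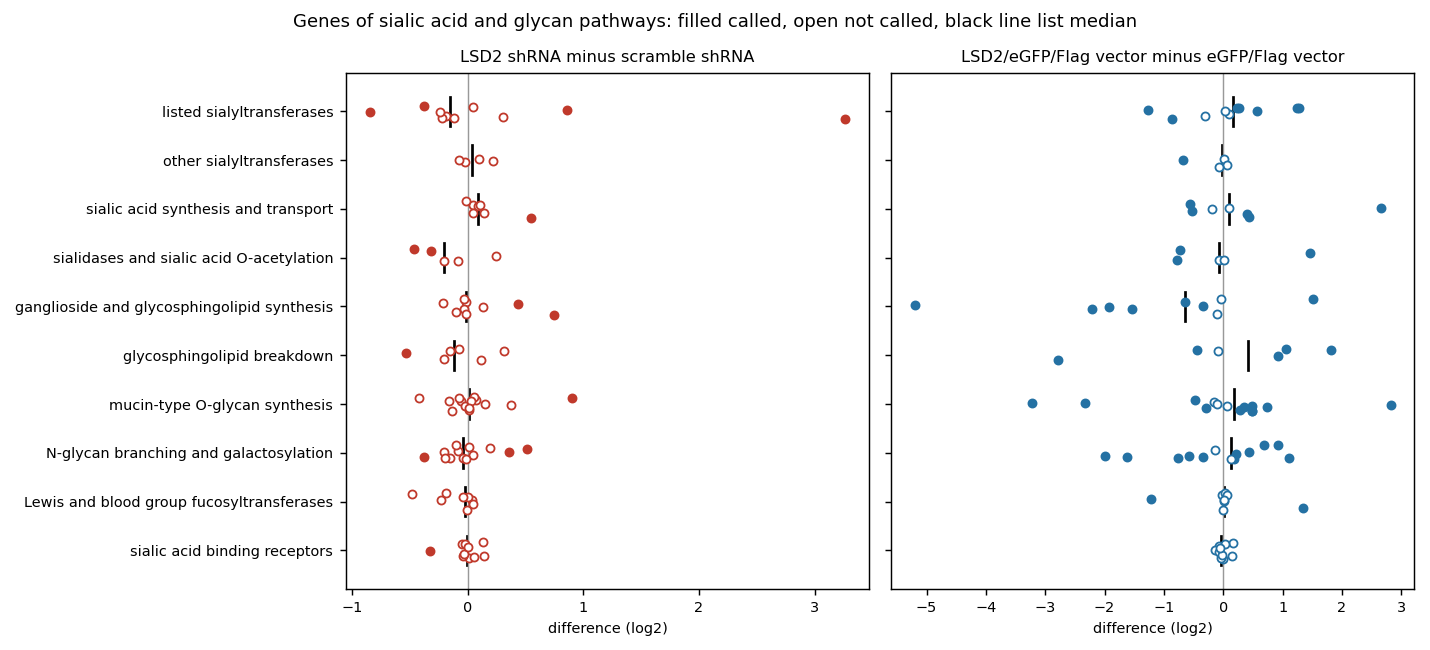
Differences (log2) of each measured gene in the listed sialyltransferases and in 9 lists of related genes, with LSD2 shRNA on the left and the LSD2/eGFP/Flag vector on the right, on separate scales; filled points were called, open points were not, and the black line is the list median. ST6GALNAC5 at 3.27 lies apart from all other genes on the left, and on the right B3GALNT1 is lowest at -5.20.

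The genes whose pattern over the 12 arrays was most like that of ST6GALNAC5 were EIF1B (Pearson r = 0.973), HBE1 (0.967), DUSP7 (0.967), IL13RA2 (0.964) and AOC2 (0.961). The r was taken after subtracting each gene's mean over the shRNA arrays and over the vector arrays, and it describes arrays that share their 4 groups. All 5 rose with the LSD2 shRNA and were not called with the vector, a pattern largely set in advance by choosing them for likeness to ST6GALNAC5. IL13RA2, a decoy receptor for interleukin-13, had the largest difference of the 5 (3.24 ± 0.23), followed by the embryonic globin HBE1 (1.89 ± 0.13). The amine oxidase AOC2 (0.89 ± 0.09), the ERK phosphatase DUSP7 (0.80 ± 0.10) and the translation factor EIF1B (0.66 ± 0.07) differed less. Among the listed sialyltransferases the highest r with ST6GALNAC5 was 0.715, for ST3GAL1, and the lowest was -0.67, for ST3GAL4.

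**Figure D5:**
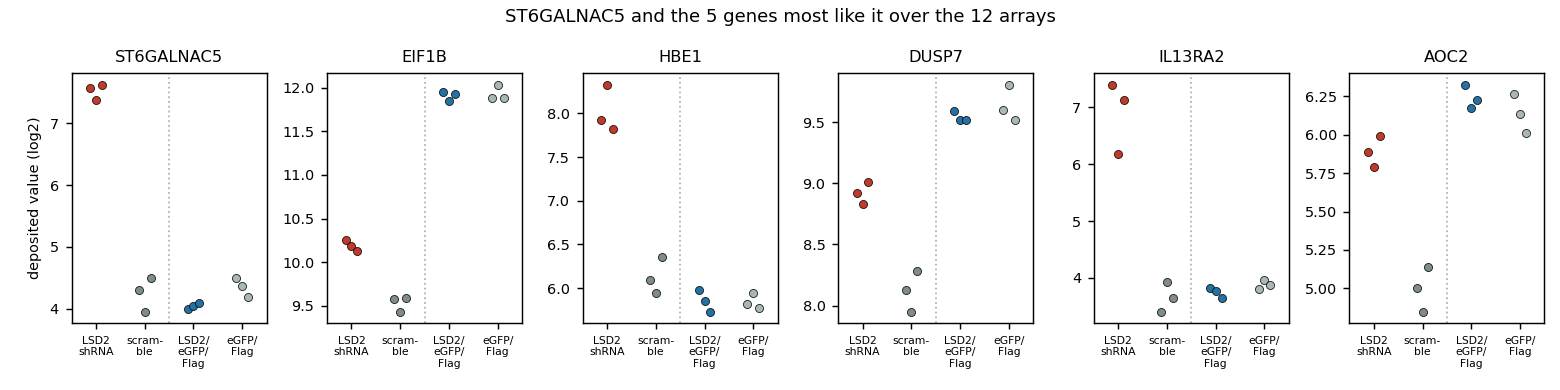
Deposited log2 values of ST6GALNAC5 and of the 5 genes most like it, with a point for each array in the 4 groups; each panel has its own scale, and the dotted line separates shRNA arrays from vector arrays. In every panel the 3 LSD2 shRNA arrays lie above the 3 scramble arrays, by 3.27 log2 units for ST6GALNAC5 and 0.66 for EIF1B, while the vector groups lie close together.

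The measured genes next to ST6GALNAC5 on chromosome 1 did not share its rise. With the LSD2 shRNA, MSH4 was at 0.04 ± 0.11 and RABGGTB at 0.35 ± 0.11 on the side before it, and PIGK was at 0.20 ± 0.10 and AK5 at -0.08 ± 0.09 on the side after it, with none called. Next to ST6GALNAC4 on chromosome 9, AK1 (fell by 0.35 ± 0.08) and ENG (fell by 0.44 ± 0.11) were called lower on the side before it. DPM2 (0.13 ± 0.06) and EEIG1 (0.18 ± 0.07) on the side after it were not called. Near the other listed genes, KHDRBS3 by ST3GAL1 (0.43 ± 0.08) and CPOX by ST3GAL6 (0.40 ± 0.11) were called higher. So were DDX19A by ST3GAL2 (0.31 ± 0.08) and SRPRA by ST3GAL4 (0.28 ± 0.07), while MXRA7 by ST6GALNAC2 fell by 0.34 ± 0.07. The calls with the shRNA were also counted on the chromosomes of the listed genes, without a test between them. Over all genes 10.5% were called, 5.0% higher and 5.53% lower. On these chromosomes the share called ran from 4.39% (chromosome 16) to 18.1% (chromosome 17), with chromosome 1 at 7.08%. More were higher than lower on chromosome 3 of ST3GAL6 and ST6GAL1 (96 and 7 of 655 genes), chromosome 12 of ST8SIA1 (61 and 6 of 674) and chromosome 8 of ST3GAL1 (36 and 10 of 434). More were lower on chromosome 17 of ST6GALNAC2 (12 higher and 115 lower of 700), chromosome 11 of ST3GAL4 (17 and 107 of 732), chromosome 2 of ST3GAL5 (24 and 91 of 755), chromosome 16 of ST3GAL2 (8 and 15 of 524) and chromosome 9 of ST6GALNAC4 (13 and 18 of 452). Chromosome 1 of ST6GALNAC5 had 44 higher and 41 lower of 1200.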

How the data were processed

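Per the labels, total RNA of 12 transfected, G-418 selected samples was hybridised to Affymetrix arrays. The deposited log2 values, for 22277 probe sets, were made by the authors with RMA, per the submitters' processing notes. For its software and version nothing is given in the sources used here. In 40.0% of the probe sets used, arrays of the shRNA set hold identical values, against 1.61% in the vector set, so the sets were treated as normalized separately. Of the 18 listed probe sets 5 held such values in the shRNA set and 0 in the vector set. The 5 were 204542_at of ST6GALNAC2, 205346_at of ST3GAL2, 213335_s_at of ST3GAL6, and 214970_s_at and 214971_s_at of ST6GAL1. RMA gives no detection calls, and precision is limited by how many arrays there are.

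Of the probe sets, 62 were controls, 19064 named 1 gene, 1043 several and 2108 none listed. Symbols were updated through gene identifiers in a RefSeq table (GRCh38.p14), where 19052 matched. The brightest probe set over all arrays stood for a gene, which left 11964 genes. Limma 3.58.1 in R 4.3.3 fitted a mean for each of the 4 groups to all 12 arrays (residual df 8, prior df 4.82). Two-sided p-values were adjusted by Benjamini-Hochberg across the genes, and "called" means an adjusted p under 0.05. Probe sets were fitted alike over all 19064. The procedure was tested on simulated arrays with independent noise and known changes in far fewer genes than were called with the vector. Those arrays held neither the identical values nor the likeness of same-numbered samples seen here, so that test does not cover these features. Differences are LSD2 shRNA minus scramble shRNA or LSD2/eGFP/Flag minus eGFP/Flag, in log2 units with the fit's standard error.

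The genes and lists were chosen with earlier results of these data known. The rule named the 10 genes with all probe sets, up to 3 called genes per list and comparison with the largest differences, and the 5 genes most like ST6GALNAC5. GNE, C1GALT1 and CMAS with the shRNA, and the marker and neighbouring genes named, were picked after values were seen. Alternatives were a replicate block, the compared groups alone, cyclic loess, equal medians, leaving out the dimmest 33.3% of genes, a gene's probe sets averaged, array weights, a variance trend with intensity, an adjusted p under 0.01 and leaving out each array. Deviations from the group means of same-numbered samples did not correlate over 0.1 in every pair, so the main fit did not take the numbers as pairs. In the shRNA arrays numbers 2 and 3 did correlate (0.51 and 0.45), so the replicate block is given beside it.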

Additional observations from a re-analysis of the deposited data

Results flagged for a closer look

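For 7 of the 10 genes the differences with the LSD2/eGFP/Flag vector and with the LSD2 shRNA lay further apart than the threshold of the limma fit, which 50.4% of all genes passed. The list was chosen on both contrasts, so these values are a description and not a test. The vector difference minus the shRNA difference was -3.57 log2 units for ST6GALNAC5 and -1.72 for ST3GAL1. It was 1.66 for ST6GALNAC4, 1.20 for ST6GAL1, 0.76 for ST6GALNAC2, 0.46 for ST3GAL2 and 0.33 for ST3GAL4. The arrays labelled LSD2/eGFP/Flag, whose marker levels went against the cell line, enter all 7 values, and their part in these differences was not tested. The difference of ST3GAL4 was no longer past the threshold in 14 of 20 alternatives. The groups held 3 arrays each, too few to look for a single array apart from the rest.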

How the results depend on the processing

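ST6GALNAC5 kept its rise with the LSD2 shRNA in all 20 alternatives run (3.12 to 3.39), and ST3GAL1 kept both of its calls in all 21. The listed genes called with the shRNA numbered 4, with 2 at an adjusted p under 0.01 and 2 to 4 without single arrays (2 without LSD2 shRNA replicate 1 or 3). They numbered 6 with array weights, with ST3GAL4 and ST3GAL6 added. With the mean of all probe sets they numbered 5, with ST3GAL2 added, against 1202 calls over all genes. With the vector they numbered 7, with 5 to 8 without single arrays, and for the difference between the effects 7, with 6 to 7. Over all genes the 1260 calls with the shRNA became 2352 with array weights, 564 at an adjusted p under 0.01 and 752 to 1347 without single arrays. Those were lowest without scramble replicate 1 (752), LSD2 shRNA replicate 1 (774) and scramble replicate 2 (832). Without single arrays the vector calls ranged from 6411 to 6818 and those of the difference from 5681 to 5980.

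Leaving out the dimmest 33.3% of genes removed ST6GALNAC5, ST6GALNAC2 and ST8SIA1, so they have no value there. The replicate block gave 4 listed genes and 1640 genes with the shRNA, 8 and 6963 with the vector and 7 and 6256 for the difference. Same-numbered samples correlated at 0.02, 0.51 and 0.45 in the shRNA arrays and at -0.14, 0.17 and 0.18 in the vector arrays. ST6GALNAC5 with the vector (-0.30) was called in 10 of 20 alternatives, among them the block and leaving out LSD2 shRNA replicate 2, scramble replicate 2 or 3 or eGFP/Flag replicate 3.

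Signs turned, without a call, for ST6GAL1 with the shRNA under the mean of all probe sets (-0.0227). With the vector they turned for ST3GAL6 under the mean of all probe sets (-0.17) and for ST3GAL4 under cyclic loess (-0.00047) and equal medians (-0.0453). ST8SIA1 with the vector turned under equal medians (-0.11) and without LSD2/eGFP/Flag replicate 3 or eGFP/Flag replicate 2, ranging from -0.0423 to 0.0769 without single arrays. For the difference between the effects, ST8SIA1 turned under equal medians (-0.0273), and ST3GAL6 turned without LSD2 shRNA replicate 1, scramble replicate 1, LSD2/eGFP/Flag replicate 3 or eGFP/Flag replicate 1, ranging from -0.116 to 0.0413 without single arrays. That of ST3GAL6 was past the threshold with the mean of all probe sets (-0.41), and that of ST3GAL5 without scramble replicate 2 (-0.68). The mean of all probe sets also lowered the vector difference of ST6GAL1 to 0.44 and its difference between the effects to 0.46. The same settings were tried, after the data were seen, on other named genes. With the shRNA these were the named pathway genes and the genes most like ST6GALNAC5, and 7 of 16 lost their call under some setting. With the vector they were the named pathway genes, the defining markers of the line, NEFM and NEFL, and 0 of 31 lost it. The causes were not tested.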
